A study of Mus musculus with 200 samples.

Results

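The cells of this series were split by size. Forward scatter, the light a cell deflects at low angle in a flow cytometer, was recorded for each of the 200 sorted cells as a pulse area, and a cell was called large when its area lay above the median of its own sort group and sort date, and small when it lay at or below. All 200 cells entered the split, 98 as large and 102 as small. The cells were medullary thymic epithelial cells of female 5-week-old B6xNOD mice, digested from the thymus with collagenase and dispase and sorted singly as CD45-, Ly51-, MHCII+ and GFP+. Every mouse carried an Aire-GFP transgene that reports Aire expression, in wild-type (WT) and in Aire-knockout (KO) animals alike. GFPhi and GFPlo cells of each genotype gave 4 groups, WT_GFPhi, WT_GFPlo, KO_GFPhi and KO_GFPlo, of 61, 39, 48 and 52 cells. With 2 sort dates, of 72 and 128 cells, this made 8 strata of group and date. No animal is named in the labels, so each side of the split is a single sample and no difference was tested. The intervals printed cover the counting of tags or, for shares, the counting of cells, and leave out the spread between mice.

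Medullary thymic epithelial cells present fragments of the body's own tissue proteins to developing T cells, and the transcription factor Aire is known for driving many of those tissue genes. The population holds dividing precursors and cells that have stopped dividing. Through the cell cycle a cell copies its DNA with the MCM helicase and the sliding clamp PCNA, and then builds a tubulin spindle whose assembly and timing depend on cyclin B, Aurora and Polo kinases and on kinesin motors. Forward scatter depends on cell size and also on shape and refraction, and cells grow as they pass towards division.

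The large cells had a median scatter area of 161460 on the first date against 127569 in the small cells, a ratio of 1.27, and of 227405 against 171798 on the second date, a ratio of 1.32. Within a stratum the sides do not overlap, because the rule separates them. In WT_GFPhi cells of the second date the nearest cells on either side of the median were at 207780 and 207649, while in KO_GFPhi cells of the first date, 9 cells in all, they were at 167057 and 154268. Areas of the first date were lower than those of the second, so a large cell of the first date often scattered less than a small cell of the second.

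**Figure D1:**
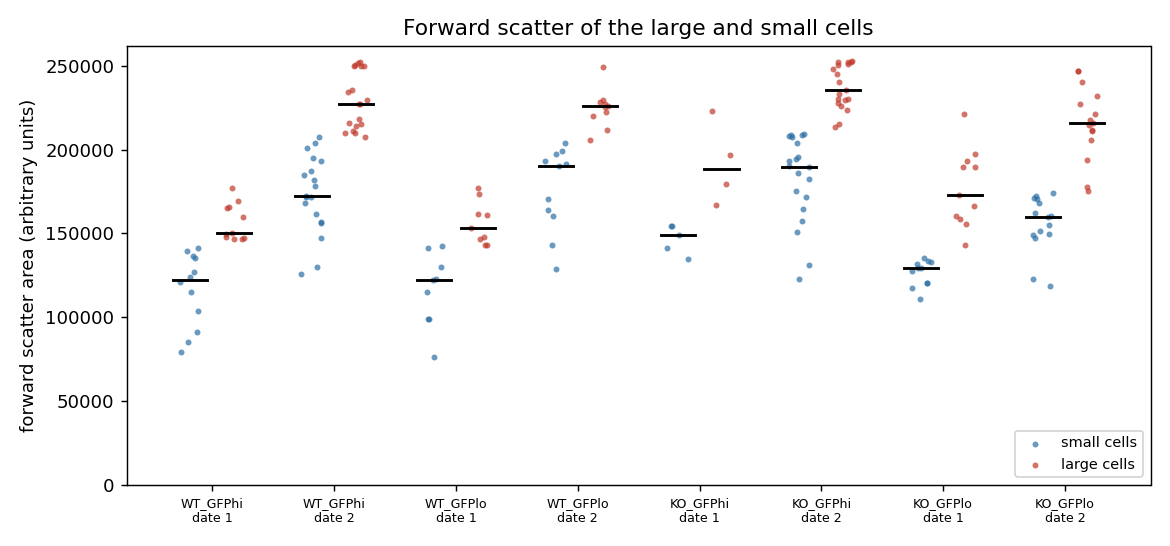
Forward scatter area (vertical axis, arbitrary units, from 0) of each cell in the 8 strata of sort group and sort date. Blue points are small cells, red points are large cells and black bars are medians; the sides were divided at each stratum's own median, and the values of the second date lie higher.

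The pulse measures of forward scatter changed their relation between dates. Height multiplied by width equalled the area times 65536 in every cell of both dates, between 0.99999 and 1.00001 of it. On the first date the column named height followed area (Spearman's rho 0.98 over 72 cells) and the column named width did not (rho 0.11). On the second date the column named height had a rho of 0.57 with area and the column named width one of 0.98 over 128 cells. The medians of the column named height went from 111850 to 77098.5 and those of the column named width from 83732 to 174618. Area, the measure used for the split, does not depend on which column is which.

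Counts in the table summed to between 2429 and 370365 per cell, with a median of 29106.5, and no pair of cells had identical counts. In 40 cells the sum of counts was above the number of molecular identifiers in the metadata, and in 0 cells was it above the number of unique reads. Krt8, a keratin of simple epithelium, was detected in 96 of 98 large and 99 of 102 small cells. Ptprc, which encodes CD45, was detected in 30 and 28 cells although the sort gate excluded CD45. Cells with more counts over 23 leukocyte genes than over 22 epithelial genes are called leukocyte-marked below, and there were 23 among large and 24 among small cells. Krt8 was detected in 22 of these 23 and 22 of these 24 cells, and Ptprc in 14 and 13. The label therefore does not name a cell type for each cell. It can rest on few counts, as 6 against 3 in 1 WT_GFPhi cell, or on many, as 1204 against 10 in 1 KO_GFPlo cell. As a set the 47 marked cells differed from the 153 others, in part by the rule itself. In CPM, defined below, their median leukocyte level was 5036 against 2253 and their median epithelial level 2119 against 6336. B lineage and plasma cell genes summed to 11636 against 1227 CPM, with medians of 1248 and 720 CPM. Aire transcripts were counted in 43 of 48 KO_GFPhi and 35 of 52 KO_GFPlo cells, as in 57 of 61 WT_GFPhi and 26 of 39 WT_GFPlo cells. The libraries were primed from the 3′ end and the deleted part of the gene is not given in the sources used here, so these counts do not check the knockout.

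The median total per cell was 28542 counts in large cells (lowest 6086, highest 249744) and 29148 in small cells (lowest 2429, highest 370365), a log2 ratio of -0.03. The quartiles, 16618 to 66779 in large and 14616.5 to 68504 in small cells, lay almost on each other. Single cells spread widely, with a standard deviation of the log2 total within strata and sides of 1.40. The strata divided evenly, with a higher median in large cells in 4 of 8. The ratio of medians ran from 0.369 in WT_GFPhi cells of the first date (19832 against 53708) to 2.53 in WT_GFPlo cells of the second (59583 against 23510). Both WT_GFPhi strata had lower medians in large cells, and the log2 ratio of medians over WT_GFPhi cells of both dates was -0.97, while both KO_GFPlo strata had higher ones, at 1.53 and 1.27. Identifiers had medians of 43930.5 and 42147 and unique reads of 53223.5 and 58506, so these measures differed in the sign of a small difference. Over all 200 cells Spearman's rho of area with total counts was 0.15, and 0.09 once stratum means were subtracted from the log2 of both. No external RNA standard was used here, so total counts stand for RNA amount only as far as capture was alike in every cell.

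**Figure D2:**
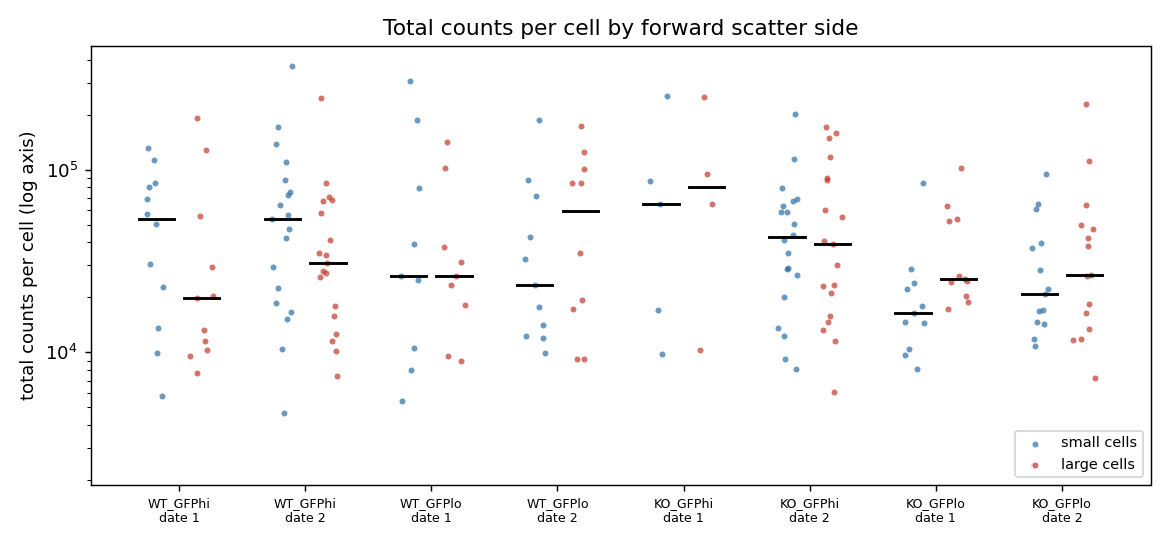
Total counts per cell (vertical axis, log scale) in the 8 strata, blue for small and red for large cells, with black bars at the medians. The sides overlap in every stratum, and the median is higher in large cells in 4 of 8.

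Without adjustment the median number of genes detected was 3805 in large and 4115 in small cells. After each cell was thinned at random to 10000 counts, which left out 9 large and 12 small cells of lower depth, the medians were 2660 genes in 89 large cells (lowest 1740, highest 3396) and 2685.5 in 90 small cells (lowest 1370, highest 3642). The medians differed by -25.5 genes, and single cells had a standard deviation of 415 genes within strata and sides. Thinned medians were higher in large cells in 2 of 8 strata. The widest gap was in WT_GFPlo cells of the first date, 2405 against 2845 genes, where 7 cells remained on each side.

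Gene levels were compared on counts summed over the cells of a side and divided by the sum of all counts, as counts per 1000000 (CPM). Of 38406 genes in the table, 10914 had at least 50 counts in at least 20 cells and were compared. A gene is called higher or lower when the ratio of the levels was at least 2-fold. By that rule 9.8% of the compared genes, 1070 in number, were higher in large cells and 7.05%, 769 in number, were lower. The median log2 ratio was 0.05. Single cells carried many of these calls, since in 819 of the higher and 556 of the lower genes more than 25% of the counts on the higher side came from 1 cell. On the first date alone 21.2% of the genes were higher and 19.2% lower, and on the second 10.9% and 8.15%. Genes 2-fold higher on both dates numbered 321 and genes 2-fold lower on both 236, beside 230 that were higher on the first and lower on the second and 281 of the opposite kind. A count of 2-fold genes on this scale therefore describes these cells, with no replicate check.

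Mitosis genes had the highest ratio over all cells among the 31 lists compared. The 43 genes of the list, spindle, kinetochore and mitotic kinase genes, summed to 2471 CPM in large cells (counting interval 2428 to 2514) and 1448 CPM in small cells (1417 to 1481), a ratio of 1.71. Of its 37 compared members, 15 were at least 2-fold higher in large cells, beside 9.8% of all compared genes, and 1 was 2-fold lower, beside 7.05%. The members' median log2 ratio was 0.76, against 0.05 over all compared genes, and 34 of the 37 lay above 0. The ratio was 3.32 on the first date and 1.40 on the second. Among first-date cells a large leukocyte-marked KO_GFPlo cell of 101640 counts stood at 14276 CPM. The highest small cell, also KO_GFPlo and of that date, had 10453 counts and stood at 13585 CPM. The first-date ratio without that large cell was not computed.

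The 15 higher genes cover the steps of division. Top2a, the topoisomerase that untangles replicated chromosomes, Ccnb1 and Ccnb2, the B cyclins of mitotic entry, and Plk1, Aurka and Aurkb, the Polo and Aurora kinases of the spindle, were among them. The others were the checkpoint kinase Bub1b, the kinetochore and midzone kinesins Cenpe, Kif20b and Kif23, the spindle proteins Nusap1, Hmmr, Dlgap5 and Cdca8, and Cdca3. Prc1, which bundles the spindle midzone, was the gene on the other side, at 9.73 CPM in large and 37.8 CPM in small cells. Of the 15, Top2a, Ccnb1 and Cdca8, had the highest summed levels in large cells, and their promoters are shown here because promoters of mitotic genes are known for carrying CCAAT boxes and TTTGAA elements. The sequences are from RefSeq on GRCm38.p6, 250 bases before to 50 after the start, read 5′ to 3′ on the gene's strand. Top2a lies on the minus strand at chr11:99024140-99024439, Ccnb1 on the minus strand at chr13:100786437-100786736 and Cdca8 on the minus strand at chr4:124936868-124937167. Capitals mark CCAAT or TTTGAA on either strand, and in Cdca8 a TTTGAA and an ATTGG overlap.
Top2a: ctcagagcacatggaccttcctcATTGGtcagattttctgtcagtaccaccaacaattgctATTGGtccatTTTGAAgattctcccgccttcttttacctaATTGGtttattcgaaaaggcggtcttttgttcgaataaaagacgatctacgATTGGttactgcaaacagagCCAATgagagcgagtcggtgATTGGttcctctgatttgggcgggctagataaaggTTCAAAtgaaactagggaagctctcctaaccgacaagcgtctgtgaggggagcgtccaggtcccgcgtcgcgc
Ccnb1: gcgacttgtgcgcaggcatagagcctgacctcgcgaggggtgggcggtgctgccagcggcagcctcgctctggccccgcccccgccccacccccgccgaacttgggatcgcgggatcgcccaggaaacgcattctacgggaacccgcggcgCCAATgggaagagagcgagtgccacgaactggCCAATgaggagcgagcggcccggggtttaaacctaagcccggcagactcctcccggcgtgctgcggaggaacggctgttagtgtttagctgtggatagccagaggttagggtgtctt
Cdca8: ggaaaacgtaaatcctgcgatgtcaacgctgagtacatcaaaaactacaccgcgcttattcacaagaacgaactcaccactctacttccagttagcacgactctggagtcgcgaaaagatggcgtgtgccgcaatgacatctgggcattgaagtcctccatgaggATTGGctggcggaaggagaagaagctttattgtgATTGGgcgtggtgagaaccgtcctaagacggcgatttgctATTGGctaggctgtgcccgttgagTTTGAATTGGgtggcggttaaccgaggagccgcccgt

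In these 300 bases Top2a holds 6 CCAAT and 2 TTTGAA matches, Cdca8 4 and 1, and Ccnb1 2 and 0. Of the 36 mitosis genes with an entry in the promoter table, of 43, 77.8% held CCAAT and 75% TTTGAA, against 37.9% and 18.1% of 27025 promoters of that length. Of the 13 matched genes among the 15 higher ones, 84.6% held CCAAT and 76.9% TTTGAA. The shares in the higher genes were thus close to those of the whole list, and the matches are a description of letters in these windows only.

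The values of these genes came from few cells. Top2a was counted in 46 of 98 large and 40 of 102 small cells, with a highest level of 4505 CPM in a large cell and 1641 CPM in a small one, and the median cell of each side was at 0. Its summed level was 324 CPM in large and 134 CPM in small cells, a ratio of 2.41 (2.21 to 2.63), and 47.1% of its counts in large cells came from 1 cell. Without library pool 11, which holds cells of the second date, the log2 ratio of Top2a went from 1.27 to 0.40. Ccnb1 was counted in 25 large and 14 small cells and reached 59.3 against 17.99 CPM, a ratio of 3.30. Without library pool 11 its log2 ratio was 0.95, against 1.72 with all cells. Dlgap5 was counted in 19 large and 15 small cells, at 44.7 against 4.96 CPM, and 60.9% of its counts in large cells came from 1 cell. Aurka, at 38.5 against 5.32 CPM, was counted in 19 and 13 cells. Cdca8 stood at 54.5 against 15.1 CPM by the sums, but the mean of per-cell levels was no higher in large cells (log2 -0.02). Libraries were made in 12 pools, and pools 11 and 12, both of the second date with cells of all 4 groups, moved these values most. Without pool 11, 5 of the 15 genes were still at least 2-fold higher in large cells and 14 lay above 0. The log2 ratio was then 0.48 for Cdca8, 0.72 for Cenpe, 0.63 for Ccnb2, 0.86 for Plk1, 0.22 for Nusap1, 0.087 for Kif20b and -0.15 for Hmmr, while Dlgap5 was at 2.39, Aurka at 2.25 and Aurkb at 2.58. Without pool 12 all 15 were at least 2-fold higher, with Top2a at 1.97, Ccnb1 at 2.34, Plk1 at 2.47, Kif20b at 2.63, Nusap1 at 1.88 and Hmmr at 1.96. Ccnb1 was at 1.04 without pool 2, and Aurkb at 0.82 without pool 9.

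Mki67, the proliferation marker Ki-67, was counted in 43 of 98 large cells (43.9%, exact binomial interval 33.9% to 54.3%) and 33 of 102 small cells (32.4%, 23.4% to 42.3%). The intervals overlap. After thinning to 10000 counts the shares were 26 of 89 (29.2%) and 18 of 90 (20%). Among cells not leukocyte-marked they were 33 of 75 and 24 of 78. The summed level was 229 CPM in large and 148 CPM in small cells, a ratio of 1.55 (1.42 to 1.70), and it was higher in large cells in 6 of 8 strata. Counts per stratum were uneven: in KO_GFPlo cells of the first date 157 counts in large cells came from 2 of 11 cells, beside 2 counts in 1 of 11 small cells, while in WT_GFPlo cells of the second date small cells were higher, at 970 against 789 CPM. Without library pool 12 the log2 ratio was 1.80, and without pool 11 it was 0.074, against 0.64 with all cells. Mki67 lies on the minus strand of chromosome 7, at positions 135689784 to 135716361 of GRCm38.

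By stratum the summed mitosis level was higher in large cells in 7 of 8. By ratio the widest difference was in WT_GFPhi cells of the first date, 2239 against 519 CPM. There large cells of 56150 and 13279 counts stood at 11452 and 13103 CPM. The narrowest ratios of the 7 were in WT_GFPhi and KO_GFPhi cells of the second date, 1913 against 1730 and 1582 against 1490 CPM. As a gap in CPM the widest was in WT_GFPlo cells of the second date, 7332 against 4650. The narrowest gap of the 7 was in WT_GFPlo cells of the first, 255 against 193 CPM. In KO_GFPhi cells of the first date, with 4 large and 5 small cells, the level was 376 against 465 CPM. A typical cell differed little: the median per-cell level was 662 CPM in large and 512 CPM in small cells, and the cells ran from 0 to 22399 CPM among large and from 0 to 13585 CPM among small cells. On each side 4 cells held at least 50% of the list's counts, and 30.7% of those in large cells and 28.7% of those in small cells came from 1 cell. With stratum means subtracted from log2 area and from the mitosis level, their Spearman's rho was 0.01 over 200 cells. Of the 10 cells with the highest level, 6 were large and 4 small, and 3 of the 10 were leukocyte-marked, among them the highest of all at 22399 CPM, a large WT_GFPlo cell. Without leukocyte-marked cells the ratio of the list was 1.36, and without library pool 11 its log2 ratio was 0.33, against 0.77 with all cells.

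**Figure D3:**
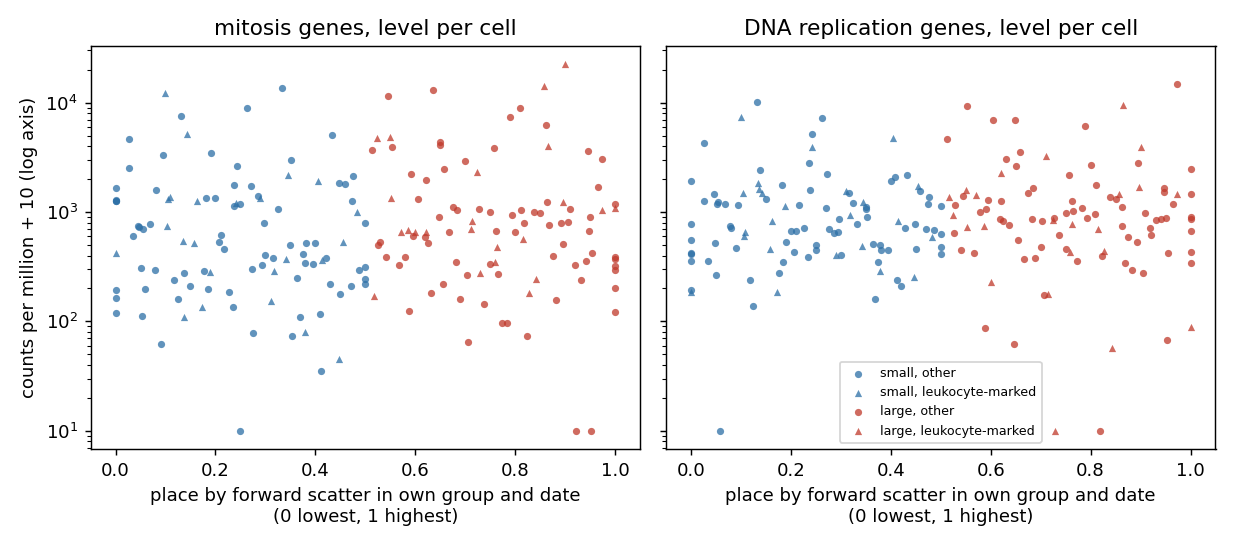
Level per cell (vertical axis, CPM plus 10, log scale) of the mitosis list and of the DNA replication list against the cell's place by forward scatter in its own group and date, from 0 for the lowest to 1 for the highest. Small cells are blue, large cells red and leukocyte-marked cells triangles; high cells occur across the whole range of size, and the highest mitosis level, 22399 CPM, is in a large leukocyte-marked cell.

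The DNA replication list stayed under the 1.5-fold ratio at which a list is called. Its 40 genes summed to 2189 CPM against 1528 CPM, a ratio of 1.43, with 1.04 on the first date and 1.45 on the second and a higher level in large cells in 5 of 8 strata. Of 32 compared members 6 (18.8%) were at least 2-fold higher, beside 9.8% of all compared genes, and 0 were lower, beside 7.05%. The higher ones were Mcm4 and Mcm7 of the replicative helicase, the flap nuclease Fen1, the primase subunit Prim1, Dtl, which directs the destruction of licensing factors, and the chromatin remodeller Hells. Mcm4 stood at 72.4 against 30.7 CPM and was counted in 31 large and 19 small cells. Mcm7 stood at 179 against 81.7 CPM with 32 cells on each side, but its log2 ratio was -3.37 on the first date and 1.32 on the second. Fen1, at 58.9 against 25.5 CPM, had 67.3% of its counts in large cells in 1 cell. Prim1, at 19.1 against 8.81 CPM, was counted in 22 and 10 cells and was higher in 7 of 8 strata. Pcna, the clamp and the list's gene with the most counts, was at 295 against 216 CPM, and Uhrf1, which guides maintenance methylation, at 266 against 153 CPM. The list's ratio was 1.68 without leukocyte-marked cells, and its log2 ratio was -0.02 in WT_GFPlo cells alone. Without pool 11 the log2 ratio was 2.35 for Mcm4, 2.58 for Fen1, 2.99 for Dtl, 1.77 for Prim1 and 1.66 for Uhrf1, and without pool 12 it was 0.29 for Mcm4, -0.34 for Fen1 and 0.19 for Uhrf1.

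Cells with at least 10 mitosis genes detected after thinning were 19 of 89 large (21.3%, 13.4% to 31.3%) and 12 of 90 small cells (13.3%, 7.08% to 22.1%). At least 5 such genes were detected in 32 of 89 and 32 of 90 cells. At least 10 DNA replication genes were detected in 17 of 89 large (19.1%, 11.5% to 28.8%) and 8 of 90 small cells (8.89%, 3.92% to 16.8%). The intervals overlap in both comparisons at 10 genes, and at 5 genes of the mitosis list the shares are the same to within 1 percentage point.

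The actin and tubulin list was under 1.5-fold too. It summed to 26062 against 21375 CPM, a ratio of 1.22 over all cells and on the first date and of 1.19 on the second, and was higher in large cells in 7 of 8 strata. Without leukocyte-marked cells, which held the highest level of all, the ratio was 1.10. Of its 30 members 3 (10%) were 2-fold higher, close to the 9.8% of all compared genes, and 0 were lower, beside 7.05%. The list's median log2 ratio was 0.27, against 0.05 over all compared genes. The 3 were Tubb4b, Tuba1b and Arpc3. Tubb4b, a beta-tubulin, stood at 292 CPM in large cells (61 cells with counts, median 61.7, highest 1604 CPM) and 130 CPM in small cells (49 cells, median 0, highest 1109 CPM), a ratio of 2.24 (2.05 to 2.45). It was higher in large cells in 8 of 8 strata, from 249 against 142 CPM in WT_GFPhi cells of the second date to 513 against 63.7 CPM in KO_GFPlo cells of the first. At most 15.8% of its counts in large cells came from 1 cell. It lies on the minus strand of chromosome 2, at positions 25222160 to 25224702 of GRCm38. Tuba1b, an alpha-tubulin, was at 362 against 178 CPM, counted in 69 and 65 cells and higher in 6 of 8 strata, and Tubb5 was at 609 against 390 CPM. Arpc3, of the Arp2/3 complex that branches actin, was at 46.7 against 21.5 CPM with 33.3% of the counts in 1 cell, and its log2 ratio was 0.27 without pool 12, against 1.12. Among the abundant members Tmsb4x, which binds actin monomers, was at 8347 against 6333 CPM, Msn, which links actin to the membrane, at 1733 against 1166 CPM and Actb at 3839 against 3968 CPM. Tubulin genes resemble one another closely, and how reads shared by several were counted is not given in the sources used here, so the share of each is uncertain.

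**Figure D4:**
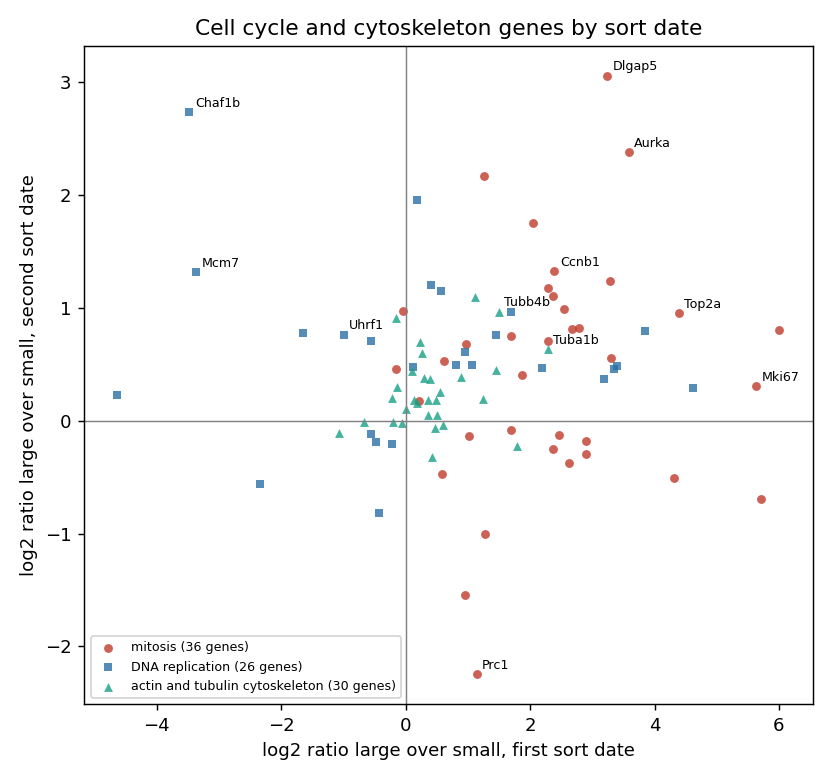
Log2 ratio of the summed level, large over small cells, on the first sort date (horizontal axis) and on the second (vertical axis) for the compared genes with at least 10 counts on the first date of the mitosis (red circles), DNA replication (blue squares) and actin and tubulin (green triangles) lists. Dlgap5 and Aurka lie far to the upper right, Mcm7 was lower on the first date and higher on the second, and Prc1 was the reverse.

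None of the growth lists reached 1.5-fold. The 30 ribosome biogenesis genes summed to 2993 against 2378 CPM, a ratio of 1.26 that was 1.05 on the first date and 1.33 on the second, in 7 of 8 strata higher in large cells. Nop56, a box C/D ribonucleoprotein that guides rRNA methylation, at 127 against 53.1 CPM, Pes1, of the large-subunit maturation complex, at 65.7 against 30.5 CPM, and Rrp1b, at 9.34 against 4.59 CPM, were 2-fold higher. These 3 were 11.1% of the 27 compared members, near the 9.8% of all compared genes, and 0 were lower, beside 7.05%. The list's median log2 ratio was 0.31. Without pool 12 the log2 ratio of Pes1 was 0.49 and that of Rrp1b 0.077, and without pool 11 that of Pes1 was 1.83. Npm1, the nucleolar histone chaperone with the most counts, was at 1199 against 951 CPM. Ribosomal protein genes had a ratio of 0.974 with 0 of 81 called, and translation factors 0.987 with 2 of 27 higher (7.41%) and 0 lower. Oxidative phosphorylation genes had 0.953 with 0 of 64 called and glycolysis genes 0.924 with 0 of 14 called. Endoplasmic reticulum folding and secretion genes had a ratio of 0.872 with 0 of 31 called, and of 0.989 without leukocyte-marked cells. Their level was however higher in large cells in 5 of 8 strata, and the median cell was at 9763 against 9197 CPM. For these genes 1 cell held 20.2% of the counts in large and 15.4% in small cells. The G1 cyclin and cyclin kinase inhibitor list had a ratio of 0.885, with 1 of 15 higher and 1 lower (6.67% each).

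Neither stress list reached 1.5-fold. The p53 and stress list summed to 1795 against 2213 CPM, a ratio of 0.811, of 0.671 on the first date and 0.966 on the second, and was lower in large cells in 5 of 8 strata. Of 17 compared members 2 (11.8%) were 2-fold lower, beside 7.05% of all compared genes, and 0 were higher, beside 9.8%. The lower ones were the p53 target genes Trp53inp1, at 53.5 against 126 CPM, and Zmat3, at 24.1 against 52.7 CPM. Under the 2-fold threshold stood Cdkn1a, the p21 cell cycle inhibitor, at 55.2 against 95.5 CPM, Ddit3 at 79.2 against 144 CPM and Gdf15 at 88.7 against 171 CPM. The log2 ratio of Gdf15 was -4.45 on the first date and 0.61 on the second. That of Cdkn1a was -1.65 without pool 5, against -0.79. The immediate early and heat shock list had a ratio of 1.06.

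The lists that describe the medullary cell itself were near 1. Epithelial markers had a ratio of 1.01 with 0 of 20 called, and MHC class II genes 0.963 with 0 of 14 called. Mature medullary markers had 0.962, with 1 of 17 higher and 1 lower (5.88% each). MHC class I genes had 0.969, with 2 of 15 higher (13.3%) and 0 lower. Of all compared genes 9.8% were higher and 7.05% lower. Krt8 was at 1299 CPM in large and 1409 CPM in small cells, and the median cell was at 1251 against 1142 CPM. Aire was at 537 against 493.1 CPM, counted in 77 and 84 cells, and Fezf2, another regulator of tissue genes, at 573 against 601 CPM. Epcam was at 347 against 335 CPM, H2-Aa at 4814 against 4964 CPM, Cd74 at 8558 against 8804 CPM, B2m at 6376 against 6843 CPM and Gapdh at 501 against 496 CPM. Krt14 was at 265 against 266 CPM and Krt5 at 275 against 198 CPM, with Krt5 counted in 42 large and 50 small cells. The tissue product lists had ratios of 1.06 for milk proteins, 1.05 for neuronal and neuroendocrine products, 1.02 for gland secretions, 1.06 for gut products and 1.18 for liver plasma proteins. Without the member with the most counts these were 0.505, 0.921, 0.691, 0.676 and 0.775. The gland ratio was 0.454 on the first date and 1.38 on the second, and 1 cell held 41.7% of its counts in large cells. The liver ratio was 0.144 on the first date and 2.83 on the second, and 1 cell held 54.5% of its counts in large cells. Cornified and stratified epithelium had 0.746, with 3.60 and 0.387 by date. Csn2, a milk casein, was at 2098 against 1903 CPM, and Ins2 had 6 counts on each side. Pancreas products had 0.531, and Reg3g, an antibacterial lectin, was the only compared gene of the 20 members. Reg3g had the most counts of the list, at 329 against 669 CPM in 57 and 69 cells. The pancreas ratio was 0.598 without Reg3g and 0.737 without leukocyte-marked cells. For this list 1 cell held 29.97% of the counts in large and 26.23% in small cells. Pool 11 also moved these values: without it the log2 ratio was -0.33 for Krt5, -0.92 for the liver list and -0.29 for Reg3g. Without pool 12 it was -1.71 for Reg3g and -0.65 for gland secretions, without pool 6 it was 0.84 for the liver list, and without pool 3 it was -1.09 for the cornified list.

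Markers of other cells were divided unevenly, gene by gene. The leukocyte list had a ratio of 1.06, and Ptprc was at 51.3 against 49.2 CPM. The B lineage and plasma cell list had a ratio of 0.572, of 1.95 on the first date and 0.483 on the second, with 2 cells on each side holding at least 50% of the counts. Igj, the joining chain of secreted antibody, was at 1555 against 3688 CPM, and the list's ratio without it was 0.988. Of 18 compared members 3 (16.7%, beside 7.05% of all compared genes) were 2-fold lower, Igj, Mzb1 (74.1 against 152 CPM) and the plasma cell surface protein Sdc1 (32.5 against 72.3 CPM), and 2 (11.1%, beside 9.8%) were 2-fold higher, among them the B cell surface gene Ms4a1 (50.8 against 18.2 CPM). Cd79a, of the B cell receptor, was at 219 against 172 CPM. Without leukocyte-marked cells the list's ratio was 1.58. Without pool 11 the log2 ratio was -0.33 for Igj, -0.35 for Mzb1, 0.78 for Ms4a1 and -1.11 for Cd79a, and it was -1.92 for Igj without pool 12. The thymocyte list had a ratio of 1.51, at 411 against 273 CPM. Of 11 compared members 3 (27.3%, beside 9.8% of all compared genes) were 2-fold higher, the T lineage genes Thy1, Themis and Bcl11b. Satb1 was 2-fold lower, 1 of 11 (9.09%, beside 7.05%). Without pool 5 Thy1 was at 0.76 and Themis at 1.34 on the log2 scale, and without pool 4 Satb1 was at -0.95. The thymocyte list was higher in large cells in 5 of 8 strata, and in leukocyte-marked cells it was at 509 against 316 CPM. Dendritic cell and macrophage markers had 0.811, fibroblast and endothelial markers 1.05, cortical epithelial markers 1.02, tuft cell markers 1.08 and red cell markers 1.18 (log2 -0.65 without pool 11). Without the member with the most counts these ratios were 0.979, 0.606, 0.903, 1.14 and 0.984. Members called lower were 3 of 15 dendritic (20%), 2 of 6 fibroblast (33.3%) and 2 of 10 cortical ones (20%), beside 7.05% of all compared genes. Members called higher were 2 of 15 (13.3%), 0 of 6 and 1 of 10 (10%), beside 9.8%. In the cortical list 1 cell held 33% of the counts in small cells, and without the top cell of each side the ratio was 1.30. In leukocyte-marked cells the mitosis list was at 5772 CPM in large and 2595 CPM in small cells, and in the other cells at 1369 and 1010 CPM. Without leukocyte-marked cells, which hold the cell with the highest mitosis level, the mitosis ratio was 1.36, and their part in it was not tested.

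**Figure D5:**
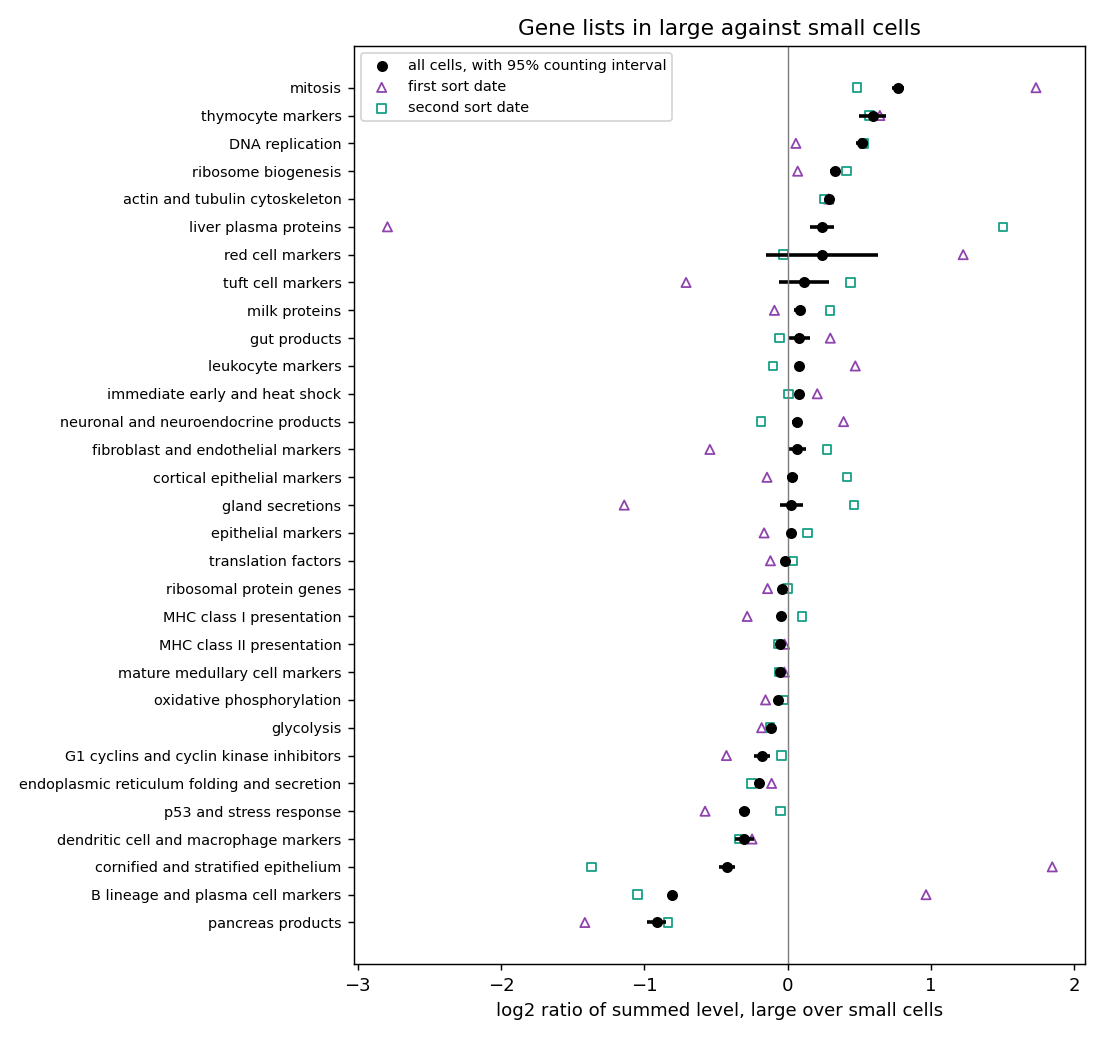
Log2 ratio of the summed level, large over small cells, for the 31 lists of genes: black points for all cells, with bars for the 95% counting interval, purple triangles for the first sort date and green squares for the second. The mitosis list is highest and the pancreas list lowest over all cells, and the dates lie far apart for the liver, cornified and B lineage lists.

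Single genes were ranked by a rule that kept those with at most 25% of the counts on the higher side in 1 cell and with the same direction on both dates, in the mean of per-cell levels and in at least 6 of 8 strata. The rule was met by 1139 genes, of which 133 were 2-fold higher and 112 lower, and the agreement of dates and strata below was required by it. The 15 highest were Fahd2a, Abhd4, Trnau1ap, Polr2d, Pofut2, Mrpl44, Pik3cd, Xkr6, Tor1b, Alg12, Kbtbd3, Hdac6, Supt7l, Xrcc1 and Ptrh2. Fahd2a stood at 20.8 against 3.12 CPM, a ratio of 6.67 (3.98 to 11.9), from 107 and 17 counts in 16 and 6 cells, of which the first date gave 2 and 1 counts. Mrpl44, of the mitochondrial ribosome, stood at 54.1 against 11.02 CPM, was counted in 30 large and 21 small cells and was higher in 8 of 8 strata. Xkr6 and Tor1b were also higher in 8 of 8. Hdac6, the deacetylase of tubulin, stood at 27.6 against 6.61 CPM, Polr2d, of RNA polymerase II, at 25.1 against 4.77 CPM and Xrcc1, a scaffold of DNA strand break repair, at 18.1 against 4.41 CPM. Leaving out 1 pool moved 10 of the 15 by over 1.5-fold, and the lowest value reached was a log2 ratio of 1.40, for Polr2d without pool 11. Without pool 11 Fahd2a was at 4.09, Mrpl44 at 2.94, Hdac6 at 3.08 and Xrcc1 at 2.93. Over all the alternatives run, Mrpl44, Xkr6, Tor1b, Kbtbd3 and Hdac6 stayed at least 2-fold higher wherever a value could be given, and the other 10 fell under 2-fold in at least 1, among them Alg12, at a log2 ratio of 0.10 in KO_GFPlo cells alone, and Fahd2a, at 0.21 with the column named height.

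The 15 lowest were Slitrk5, Aqp3, Robo2, Bnip1, Gemin6, Dnalc4, Mdm4, Tmem108, Crtac1, Zfp263, Stk25, Kif16b, Rnf165, Ifitm1 and Tek. Robo2, a receptor for Slit guidance proteins, was the one with the most counts, 243 in large and 1620 in small cells, at 47.3 against 297 CPM, 6.29-fold lower. By group the log2 ratio was -3.46 in WT_GFPhi cells, and it was under 2-fold in KO_GFPhi (-0.12), KO_GFPlo (-0.89) and WT_GFPlo cells (-0.68) and with ls primers (-0.82). With umi primers the log2 ratio of Robo2 was -4.58, and 1 cell held 24.8% of its counts in small cells. Robo2 was detected in 72 of 98 and 78 of 102 cells, so the sides differed in the summed counts more than in the share of cells. Aqp3, a water and glycerol channel, was at 15.6 against 99.9 CPM in 43 and 49 cells. Bnip1, a SNARE of the endoplasmic reticulum, was at 4.08 against 23.7 CPM in 7 and 26 cells, and Mdm4, an inhibitor of p53, at 8.17 against 36.2 CPM in 16 cells on each side. Mdm4 and Dnalc4 were lower in large cells in 7 of 8 strata and Gemin6, of the complex that assembles splicing particles, in 6 of 8, and none of these genes was higher in large cells in any stratum. Leaving out 1 pool moved 6 of the 15 by over 1.5-fold, to -3.87 for Gemin6 and -2.99 for Mdm4 without pool 11 and to -0.98 for Kif16b without pool 6, the value nearest to 0 among the 15. Over all the alternatives run, Bnip1 alone stayed at least 2-fold lower, and the other 14 passed under 2-fold in at least 1, among them Stk25, at -0.12 in WT_GFPhi cells, and Kif16b, at -0.12 in KO_GFPlo cells.

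Surface MHC class II was somewhat higher in large cells. It had a median of 63740 in large and 56156 in small cells on the first date and of 67570 and 59859 on the second, ratios of 1.14 and 1.13, and was higher in large cells in 3 of 4 groups and then in 4 of 4. The MHC class II transcripts had a ratio of 0.963. The GFP reporter had medians of 11160 and 11109 on the first date and 14510 and 12835 on the second, while Aire transcripts had a ratio of 1.09. The Ly51 channel, one of those used to gate, had medians of 1799 and 1333 on the second date and was higher in large cells in 3 of 4 groups, and lay near 0 on the first. Side scatter area, a measure of granularity, had a median of 4400 on both sides on the first date and of 23749 and 21088 on the second. With stratum means subtracted from the log2 values, area had a Spearman's rho of 0.21 with side scatter, 0.15 with MHC class II and 0.11 with GFP over 200 cells. The CD45 channel, used to gate, had medians of -18269 in large and -29881 in small cells on the first date, higher in large cells in 4 of 4 groups (rho with area 0.30 over 72 cells), and of -487 and -258 with another dye on the second, higher in 1 of 4 groups (rho -0.053 over 128 cells). The CD4 channel had medians of 5924 and 9206 on the first date, higher in large cells in 1 of 4 groups (rho -0.33), and of 1609 and 1159 on the second, higher in 4 of 4 (rho 0.24). The rho values of CD45 and CD4 are over the cells of a date without subtracting group means, and values below 0 are as deposited. CD45 and CD4 thus had opposite orders on the 2 dates, and the part of either in the gene levels was not tested. The DAPI channel had medians of 397 in large and 281 in small cells on the first date, higher in 4 of 4 groups. On the second these were 142 and 18, higher in 3 of 4. Forward scatter width, with the columns exchanged on the second date, had medians of 84113 and 83553 and then of 78048 and 75496. It was higher in large cells in 3 of 4 groups and then in 4 of 4. The part of DAPI and width was not tested.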

How the data were processed

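The deposited table holds whole-number counts of tags per gene for 200 single cells, not normalized. TopHat2, SAMtools 0.1.19, Picard 1.79, HTSeq and the genome mm10 are named in the submitters' processing notes; how identifiers were collapsed is not given in the sources used here. Flow cytometer intensity values per cell come from the deposited metadata. Cells were split at the median of forward scatter area within group and sort date. Counts were summed per side and scaled to 1000000. Ratios have exact conditional binomial 95% intervals and levels exact Poisson ones, which cover counting error of tags only. Tags without known collapsing are not independent molecules. Shares have exact Clopper-Pearson intervals, which take the cells of a side as independent draws and leave out the spread between mice. Genes needed 50 counts in 20 cells; 2-fold is called, and 1.5-fold for a list. Ranked genes had 0.5 count added. Detection was compared after thinning to 10000 counts. Depth ran from 2429 to 370365 counts per cell. The level script was tested on simulated data. Tools were edgeR 4.0.16 (TMM factors only), scipy 1.17.1, pandas 2.3.3 and Python 3.11.15. The named genes were Mki67, Krt8, Ptprc and other markers, the 15 ranked genes per direction, and from each list those with the most counts or extreme ratios. The split, the genes and the lists were chosen with earlier results of these data known. Alternatives covered dates, groups, primers, pools, cell filters, size measures, scaling and thresholds. The result of 1 list member is not reported here.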

Additional observations from a re-analysis of the deposited data

How the results depend on the processing

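No animal, culture or replicate is named, so the spread between mice is unknown and the sizes above hold for these cells alone. No paired analysis was possible because the labels number no replicates across groups and no result comes from a test. The log2 ratio of median totals ranged from -0.97 to 0.59 over 32 alternatives and the difference in thinned genes from -356 to 64.5 over 30. The sign of the first was opposite to that over all cells in 17 of 32 and that of the second in 6 of 30. The alternative with spike-in rows was not run, since the table holds none. The mitosis list kept its direction in 33 of 33 alternatives (log2 0.08 to 1.75), the actin and tubulin list in 33 of 33 (0.02 to 0.61) and Tubb4b in 30 of 30 (0.54 to 2.83). The DNA replication list was at -0.68 when cells were split by the column named height as deposited, and at 0.46 with the columns exchanged on the second date, an alternative chosen after seeing the data. TMM scaling shifted every log2 ratio by -0.05. Depth limits the genes with few counts: Pik3cd rests on 42 and 9, and 20 values of 15 genes could not be given in a subset because each side had at most 3 counts.

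The numbers of 2-fold higher and lower genes, 1070 and 769, were 968 to 1206 and 720 to 978 when each library pool was left out. With the minimum of counts and cells applied within the subset, 658 were higher on the first date alone, 523 in WT_GFPhi cells, 323 and 282 were higher and lower in WT_GFPlo cells, 406 and 442 in KO_GFPhi cells, 360 and 253 in KO_GFPlo cells and 387 and 389 with umi primers, each over fewer genes tested and fewer cells. They were 2640 and 2412 with at least 10 counts, 442 and 297 with at least 100 counts in at least 40 cells, 2296 and 1768 at 1.5-fold and 337 and 261 at 3-fold.

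The following log2 ratios, large over small, had the opposite sign to the value over all cells, and the cause was not tested. In KO_GFPhi cells alone they were 0.27 for the B lineage and plasma cell markers list, 1.33 for Igj, -0.43 for Top2a, 0.12 for Sdc1, -0.084 for Themis, -0.084 for Cenpe, -1.51 for Cdca3, -0.22 for Kif23, -1.59 for Nusap1 and 0.18 for Trp53inp1. In KO_GFPlo cells alone they were 0.45 for the pancreas products list, 1.99 for Igj, -0.034 for Trnau1ap, 0.13 for Aqp3, 0.28 for Tmem108, 0.69 for Crtac1, 0.95 for Tek, -2.73 for Bcl11b, -1.24 for Cdca8, -0.25 for Bub1b, -0.89 for Rrp1b, -0.34 for Ccnb1, 1.496 for Prc1, -0.058 for Pes1, 0.79 for Trp53inp1, 0.58 for Reg3g and 0.23 for Mzb1. WT_GFPhi cells alone gave -1.61 for Polr2d, 1.42 for Ifitm1, -0.75 for Cdca8, -0.58 for Hmmr, -0.81 for Ccnb2 and -0.60 for Hells, and WT_GFPlo cells alone gave -0.019 for the thymocyte markers list, -1.55 for Bub1b and -1.504 for Fen1. On the first date alone the values were 0.97 for the B lineage and plasma cell markers list, 2.31 for Igj, -0.39 for Bcl11b, 1.14 for Prc1, -3.37 for Mcm7 and 3.09 for Mzb1. The column named height gave -0.58 for Arpc3, -0.80 for Aurkb, -0.79 for Mcm4, -1.07 for Mcm7, -2.31 for Fen1 and -0.63 for Hells. Umi primers alone gave 0.18 for Sdc1, -0.87 for Mcm4, -2.59 for Fen1 and 1.28 for Zmat3, and ls primers alone -0.12 for Rrp1b and -0.20 for Kif20b. Without leukocyte-marked cells they were 0.66 for the B lineage and plasma cell markers list, 1.51 for Igj, -0.40 for Hmmr and 1.35 for Mzb1, and without the 40 cells of lowest depth as well, chosen after seeing the data, 0.70 for the B lineage and plasma cell markers list, 1.55 for Igj, -0.53 for Hmmr and 1.38 for Mzb1. A split within library pools gave -0.13 for Ccnb1, -0.38 for Nusap1 and 0.52 for Reg3g, and the largest against the smallest cells of each stratum, with the middle left out, 0.25 for the pancreas products list. Leaving out each library pool gave ranges of -0.15 to 1.96 for Hmmr, lowest without pool 11, and of -0.34 to 2.58 for Fen1, lowest without pool 12. The mean of per-cell levels gave -0.020 for Cdca8 and the median of members 0.038 for the B lineage and plasma cell markers list.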
